A study of Mus musculus with 8 samples.

Results

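Posterior and anterior pieces of Gcnf-/- mouse embryos were compared gene by gene. Gcnf (germ cell nuclear factor, gene symbol Nr6a1) encodes a nuclear receptor with no known ligand, and the sources used here give genotype Gcnf-/- but not the structure of the allele. The anterior piece held the tissue up to and including the first pharyngeal arch, and the posterior piece held everything from the second arch on, at E9.25 with 9 to 11 somites. Each region gave 2 libraries, numbered 159 and 163, so 4 of the 8 libraries of the series make up this comparison, and the other 4 are the same pieces of wild-type (wt) embryos, numbered 153 and 156. The labels give no promoter, Cre or treatment. Of 55421 genes in the deposited table, 15836 had a TPM (transcript level per gene length, with the same total in every library) of at least 1 in at least 2 of the 4 mutant libraries and were tested.

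The embryo at this stage is patterned from head to tail. The head is marked by transcription factors of the forebrain and midbrain, while the trunk expresses Hox genes, which lie in clusters and switch on in the order of their position, the most 5′ genes (high paralogue numbers) latest and furthest back. The body is extended by progenitors in the tail bud, which depend on T, Cdx genes, Wnt and Fgf, and which give rise to presomitic mesoderm and the spinal cord. Retinoic acid made by the trunk mesoderm acts against Fgf at the front of that growth zone. Nr6a1 is known as a repressor of Pou5f1 (Oct4) during gastrulation, and its loss is known to halt somite formation and axial growth.

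The mutant libraries held between 29926366 and 52957993 reads in genes, as recovered from the TPM values, and 3 reads in a gene of 1 kb gave 0.2 to 0.343 TPM. Such floors cover counting error only. Xist was at 25.3 and 0.0749 TPM in anterior libraries 159 and 163 and at 30.9 and 0.0383 TPM in the posterior ones, and Ddx3y of the Y chromosome was at 0.155 and 31.0 TPM anteriorly and 0.0768 and 39.4 TPM posteriorly, so the libraries numbered 159 and those numbered 163 came from embryos of different sex. The wt libraries had Ddx3y at 27.9 and 26.2 TPM in the anterior and 31.9 and 26.4 TPM in the posterior pieces. No label says whether libraries of the same group come from separate embryos, so the p-values measure the spread between libraries, which for the wt may be technical. The piece labels held against markers of the head (Otx2, Six3 and Lhx2) and trunk (Hoxb4, Hoxb6, Hoxb8 and Meox1), whose libraries did not overlap between the regions. Of all tested genes, 30.9% had no overlap with the anterior higher and 21.6% with the posterior higher. Pairs of TPM values are given for library 159 and then 163 in the mutant, and for 153 and then 156 in the wt. Differences are posterior minus anterior on the scale of log2(TPM + 1) ± standard error, which understates the change of low genes. Adjusted p-values come from limma with Benjamini-Hochberg adjustment over all 15836 genes, and "higher" or "lower" as a count means an adjusted p under 0.05. TPM is relative, and in whole pieces fewer cells of a type and less RNA per cell cannot be told apart.

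Of the 15836 genes, 2722 (17.2%) differed between the regions of the mutant embryos. The posterior piece was higher for 1334 (8.42%) and lower for 1388 (8.76%), and 1160 (7.33%) differed at least 2-fold, 696 of them higher and 464 lower. Without anterior library 159 the posterior piece was higher for 866, and without anterior library 163 it was lower for 777. With the spread taken from the 4 mutant libraries alone, rather than from all 8, 1800 genes differed. Of the genes named below, Dusp6, Esrrg, Fgfr1, Id3, Irx1, Itga2b, Kit and Lin28a lost their call there. So did Nr6a1, P4ha1, P4ha2, Pcsk5, Pou5f1, Ryr2, Slc2a1 and Slc2a3. The median difference over all tested genes was -0.041. A gene that is silent in 1 region passed the filter through the other region alone, which held for 482 genes at or over 1 TPM in both posterior libraries and neither anterior one and for 379 genes the other way. The scatter of the pieces shows genes of both directions away from the diagonal.

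**Figure D1:**
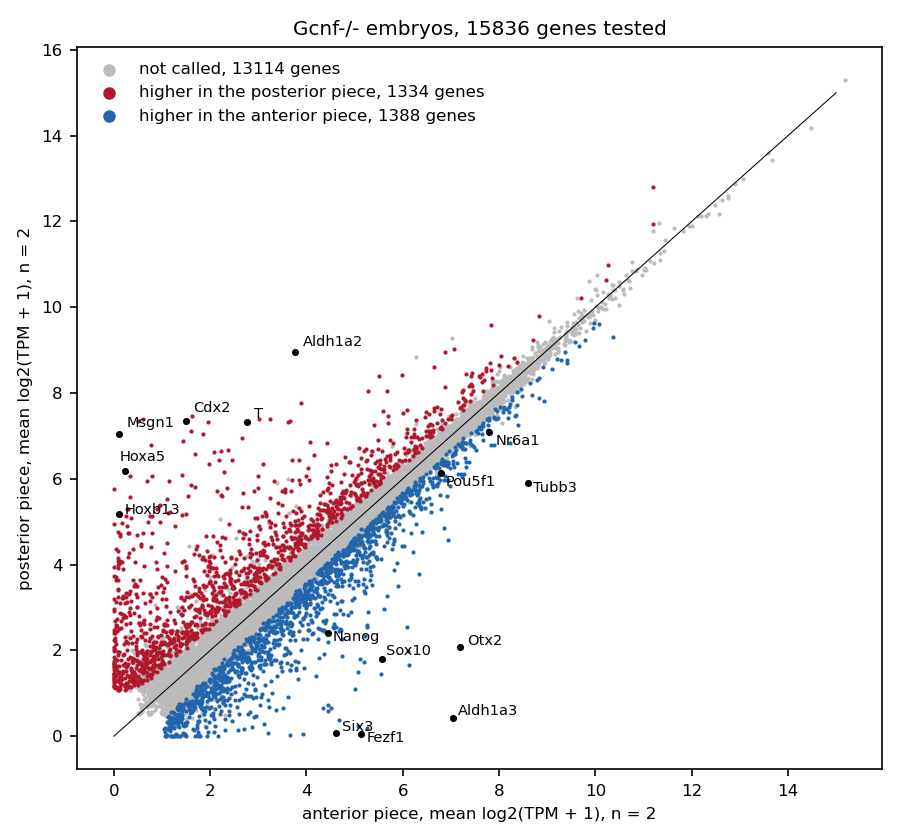
Mean log2(TPM + 1) of the 2 posterior libraries (y axis) against that of the 2 anterior libraries (x axis) for the 15836 genes tested in Gcnf-/- embryos. Red points mark the 1334 genes higher and blue points the 1388 genes lower in the posterior piece (adjusted p under 0.05), the line marks equal values, and named genes are in black.

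The largest rise toward the tail was that of Msgn1, the bHLH factor that commits tail bud cells to presomitic mesoderm. Msgn1 was at 0.164 and 0 TPM in the anterior and 137 and 126 TPM in the posterior libraries, a difference of 6.94 ± 0.18 (adjusted p = 8.28e-08). Both posterior libraries were far above both anterior ones. Its promoter is shown because Msgn1 is a known target of Wnt signalling and the sequence carries ATCAAAG, a motif bound by the Tcf/Lef factors of that pathway. The 250 bases before the annotated start (RefSeq, GRCm38.p6, chr12:11208949-11209198, minus strand, 5′ to 3′) hold 1 match in either orientation, in capitals, 203 bases before the start. Of 32851 promoters of the same length, 1053 (3.21%) held the motif on either strand.
Msgn1: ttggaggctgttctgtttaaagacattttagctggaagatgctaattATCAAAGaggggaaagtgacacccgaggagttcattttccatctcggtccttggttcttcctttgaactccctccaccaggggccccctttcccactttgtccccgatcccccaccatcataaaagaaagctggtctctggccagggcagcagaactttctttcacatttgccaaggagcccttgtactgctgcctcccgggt

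The 10 largest rises were ranked without predicted and sex-linked genes, so X-linked Cdx4 (6.02 ± 0.21) is not among them. Nepn, a small leucine-rich proteoglycan of the foregut and midgut endoderm, was at 0.553 and 0.505 TPM anteriorly and 132 and 210.0 posteriorly (6.78 ± 0.20). Hoxa5 rose by 5.95 ± 0.15, Cdx2 by 5.87 ± 0.17 and Cdx1 by 5.44 ± 0.15, and Cdx factors are the activators of trunk Hox genes. Meox1, a homeobox gene of the somites, was at 1.81 and 2.41 TPM anteriorly and 166 and 188 posteriorly (5.84 ± 0.17). Wnt2, a ligand of the lateral plate and lung field mesoderm, went from 3.92 and 2.04 TPM to 141 and 182 (5.38 ± 0.21). Hoxa4 was listed at 0 in both anterior libraries and at 51.4 and 55.9 TPM in the posterior ones, at least 268-fold higher than 3 reads per library would give. Hoxb5os, an antisense transcript across the Hoxb cluster, rose by 6.85 ± 0.22, but the libraries did not mark strand and its reads cannot be told apart from those of the genes it overlaps. Ttr, a thyroid hormone carrier of the visceral endoderm, had the widest spread of these 10 (5.52 ± 0.83), with 76.3 and 246 TPM in the posterior libraries.

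The 10 largest falls were ranked the same way. Aldh1a3, which makes retinoic acid in the eye and nasal region, was at 118 and 145 TPM in the anterior and 0.36 and 0.347 TPM in the posterior libraries (-6.60 ± 0.15, adjusted p = 7.21e-08). Otx2, the homeobox gene required to form the forebrain and midbrain, was at 152 and 137 TPM anteriorly and 3.2 and 3.31 posteriorly (-5.09 ± 0.30). The forebrain factors Fezf1 (-5.08 ± 0.17), Six3 (-4.54 ± 0.14), Otx1 (-4.29 ± 0.14), Dmrta2 (-4.11 ± 0.26), Emx2 (-3.90 ± 0.21) and Nr2e1 (-3.88 ± 0.17) fell with it, as did Wnt8b, a ligand of the dorsal forebrain (-5.07 ± 0.17). Vgll3, a cofactor of TEAD proteins, went from 80.7 and 57.7 TPM to 4.8 and 1.71 (-4.13 ± 0.34). All 20 of these genes had libraries that did not overlap between the regions, which their selection required and which holds for 21.6% of all tested genes with the posterior higher and 30.9% with the anterior higher.

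**Figure D2:**
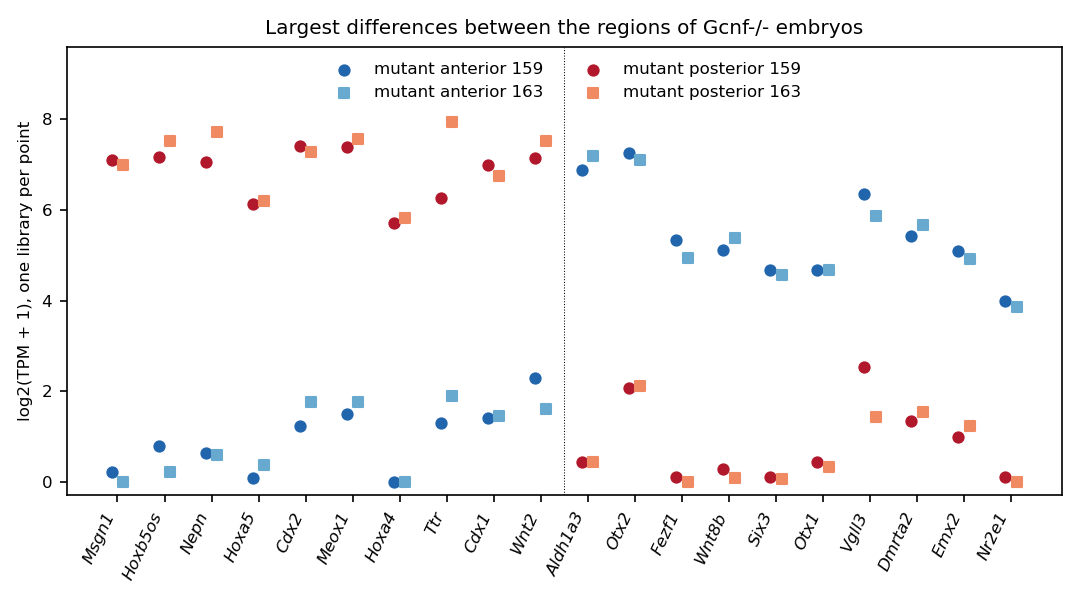
Log2(TPM + 1) in each of the 4 mutant libraries for the 10 largest rises (left) and 10 largest falls (right) from anterior to posterior, sex-linked and predicted genes left out. The posterior libraries of Ttr are the farthest apart among the rises, at 76.3 and 246 TPM, and Hoxa4 is at 0 in both anterior libraries.

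Hox genes separated the pieces almost without exception. Of 39 Hox genes, 37 were tested, 36 were higher in the posterior piece (8.42% of all tested genes were) and 0 were lower. This count is in part set by the filter, since 33 of the 37 reached 1 TPM only in posterior libraries. Hoxc12 (0 and 0 TPM anteriorly, 1.29 and 0.666 posteriorly) and Hoxc13 (0 and 0.0455, 0.541 and 0.791) fell short of it. The summed TPM of each paralogue set was low in the anterior libraries, at 15.5 and 29.3 for groups 1 to 3, 1.43 and 1.84 for groups 4 and 5 and 0.203 and 0.692 for groups 12 and 13. It was 315 and 289 TPM for groups 1 to 3, 237 and 253 for groups 4 and 5, 118 and 138 for groups 6 and 7, 213 and 235 for groups 8 and 9, 103 and 119 for groups 10 and 11 and 107 and 98.2 for groups 12 and 13 in the posterior libraries. All paralogue sets, the most 5′ included, were measured in the mutant posterior piece.

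Within groups 1 to 3, whose genes pattern the hindbrain and neck, Hoxa2, expressed into the second arch, did not pass, at 7.42 and 17.5 TPM in the anterior and 37.3 and 35.1 in the posterior libraries (1.57 ± 0.49, adjusted p = 0.0593). It passed under 9 of 19 alternatives, among them without anterior library 163 (adjusted p = 0.0457), and with 1 library left out its difference lay between 1.01 and 2.14. The anterior libraries differed there, and library 163 was also above library 159 in Hoxb1 (1.08 and 4.01 TPM) and Hoxb2 (0.433 and 1.45 TPM), both of the hindbrain. Hoxd1 (4.44 ± 0.16), Hoxa3 (4.05 ± 0.15), Hoxb3 (3.72 ± 0.17) and Hoxd3 (1.99 ± 0.19) rose with smaller spread than Hoxb1 (4.11 ± 0.39). Hoxb2 reached 12.9 and 15.2 TPM in the posterior libraries (adjusted p = 0.000118).

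In the sets of the neck and trunk every tested gene was higher in the posterior piece. Hoxa5, which acts at the neck and thorax, reached 69.6 and 72.8 TPM, and Hoxc4 (5.23 ± 0.17), Hoxb4 (4.27 ± 0.13), Hoxb5 (3.92 ± 0.15) and Hoxc5 (3.91 ± 0.23) followed. Hoxd4 was listed at 0 in both anterior libraries and at 6.27 and 6.95 TPM in the posterior ones, at least 61.1-fold higher. Of groups 6 and 7, Hoxb6 reached 34.7 and 42.7 TPM, Hoxb7 28.2 and 29.7, Hoxc6 24.1 and 28.1, Hoxa7 22.4 and 26.3 and Hoxa6 8.68 and 10.7. Of groups 8 and 9, Hoxb8 (54.0 and 68.9 TPM) and Hoxb9 (62.5 and 69.1 TPM) were the highest, and their difference from each other was within the spread of the libraries. Hoxd9 (4.87 ± 0.17), Hoxa9 (4.01 ± 0.19), Hoxd8 (3.87 ± 0.18), Hoxc8 (3.96 ± 0.20) and Hoxc9 (3.34 ± 0.17) completed that set.

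The most 5′ genes, which specify the lumbar, sacral and tail levels and end axial growth, also rose toward the tail of the mutant. Hoxb13 was at 0 and 0.152 TPM in the anterior and 38.8 and 32.1 TPM in the posterior libraries (5.08 ± 0.18), and both wt posterior libraries were near 0 (0.122 and 0.0645 TPM). Hoxd13 reached 39.7 and 36.7 TPM in the mutant posterior libraries, Hoxa13 18.9 and 18.8 and Hoxd12 7.85 and 9.12. In groups 10 and 11, Hoxa10 (26.8 and 34.7 TPM) and Hoxc10 (24.6 and 26.1 TPM) were the highest, followed by Hoxa11 (19.5 ± 2.09, SD, n = 2), Hoxd10 (13.8 and 16.3), Hoxc11 (10.9 and 14.1) and Hoxd11 (8.45 and 7.09). Hoxc11 was listed at 0 in both anterior libraries, a rise of at least 79.3-fold.

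The regional step of Hox genes was set beside that of the wt, which shares no library with it. The difference between the mutant and wt steps passed the test for 11 of the 37 genes (1.11% of all tested genes did). It was smaller in the mutant for Hoxb9 (-2.34 ± 0.29, adjusted p = 0.00872), Hoxc8 (-2.03 ± 0.28, adjusted p = 0.0155) and Hoxc9 (-1.48 ± 0.24, adjusted p = 0.0269), all of groups 8 and 9. It was larger for Hoxb13 (5.05 ± 0.25, adjusted p = 0.00014), Hoxd12 (3.24 ± 0.26, adjusted p = 0.00159), Hoxd13 (2.61 ± 0.24, adjusted p = 0.00271), Hoxa13 (2.50 ± 0.22, adjusted p = 0.00228), Hoxc11 (2.56 ± 0.25, adjusted p = 0.00375), Hoxa11 (2.25 ± 0.28, adjusted p = 0.00971), Hoxd11 (2.07 ± 0.30, adjusted p = 0.0166) and Hoxa4 (1.60 ± 0.20, adjusted p = 0.00975). The median step was 4.01 in the mutant and 5.29 in the wt for groups 8 and 9, 4.12 and 2.50 for groups 10 and 11, and 4.62 and 0.88 for groups 12 and 13. Hoxb9, Hoxc11, Hoxd12, Hoxa13, Hoxb13 and Hoxd13 passed without each single library. The calls depended on the scale, and with limma voom on recovered reads 2 of the 11 passed, Hoxb13 and Hoxd12. With log2(TPM + 0.1) 5 of the 11 passed (Hoxa4, Hoxb9, Hoxc11, Hoxd12 and Hoxb13), and without a filter 5 passed (Hoxc11, Hoxd12, Hoxa13, Hoxb13 and Hoxd13). The difference of steps missed the threshold for Hoxa4 without library wt posterior 153 or 156 (adjusted p 0.0604 to 0.079), for Hoxa11 without wt posterior 153 (adjusted p 0.0604), for Hoxc8 without mutant anterior 163 or wt posterior 153 (adjusted p 0.0568 to 0.091), for Hoxd11 without mutant anterior 159 or 163 or wt posterior 153 or 156 (adjusted p 0.0507 to 0.0942) and for Hoxc9 without mutant anterior 159 or 163, mutant posterior 159, wt anterior 153 or 156 or wt posterior 153 or 156 (adjusted p 0.0516 to 0.141).

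**Figure D3:**
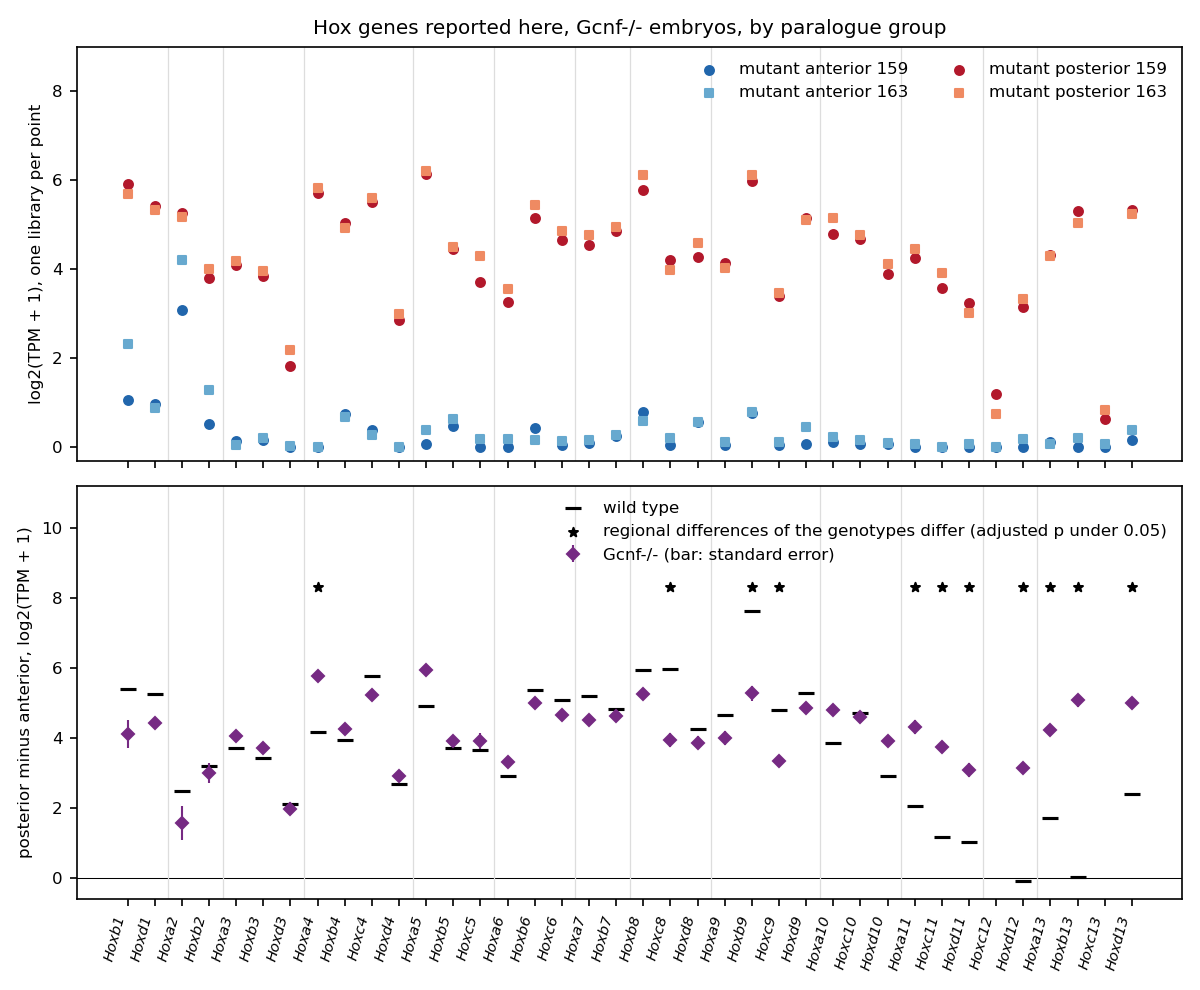
Hox genes reported here, in order of paralogue group. The upper panel plots log2(TPM + 1) in each mutant library, and the lower panel the posterior minus anterior difference in the mutant (diamonds, with standard error) and in the wt (dashes), with a star where the 2 differ (adjusted p under 0.05). Stars stand at 11 genes, with the mutant below the wt at 3 genes of groups 8 and 9 and above it at Hoxa4 and at 7 genes of groups 11 to 13.

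Markers of the growth zone were high in the mutant trunk. Of 16 genes of axial progenitors and the tail bud, 12 were higher and 1 was lower in the posterior piece (median 1.55). Of all tested genes, 8.42% were higher and 8.76% lower. This count is in part set by the filter, since 3 of the 16 reached 1 TPM only in posterior libraries. T (brachyury), required for the tail bud and notochord, was at 5.73 and 5.81 TPM anteriorly and 170.5 and 147 posteriorly (4.56 ± 0.11). Cdx2 went from 1.33 and 2.38 TPM anteriorly to 171 and 156 posteriorly, Cdx4 from 0.717 and 0.685 to 129.9 and 91.5 and Cdx1 from 1.67 and 1.73 to 126 and 107. Evx1, a homeobox gene of the streak and tail bud, rose by 4.35 ± 0.19. The 1 lower member was Lin28a, an RNA-binding protein that blocks let-7, at 881 and 747 TPM anteriorly and 590.3 and 509 posteriorly (-0.56 ± 0.12, adjusted p = 0.0108), a call lost without mutant anterior library 159 (adjusted p = 0.0776) or mutant posterior library 163 (adjusted p = 0.0578). Without posterior library 163 the list held 13 higher and 0 lower. Sall4, at 106 and 117 TPM anteriorly and 123 and 107 TPM posteriorly, differed by 0.04 ± 0.11 and did not pass.

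Of 14 tested genes of presomitic mesoderm and its oscillator, 10 were higher and 0 lower (median 1.31), beside 8.42% of all tested genes higher. This count is in part set by the filter, since 4 of the 14 reached 1 TPM only in posterior libraries, and with the filter at 5 TPM 7 were higher with a median of 0.94. Tbx6, which directs progenitors to a mesodermal fate, averaged 2.08 ± 0.491 TPM anteriorly and 57.1 ± 4.19 TPM posteriorly (SD, n = 2) (4.25 ± 0.18). Hes7, the core repressor of the segmentation clock, was at 0 and 0.124 TPM anteriorly and 14.2 and 13.9 TPM posteriorly (3.83 ± 0.16), and Mesp1 of the forming somite at 0 and 0.0879 TPM anteriorly and 4.23 and 5.84 TPM posteriorly (2.52 ± 0.21). The Notch ligand Dll1 rose by 0.94 ± 0.11. Lfng, which modifies Notch in the clock and is also expressed in the brain, was at 44.8 and 57.9 TPM anteriorly and 35.7 and 42.9 posteriorly and did not pass (-0.37 ± 0.14, adjusted p = 0.117).

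Somite, lateral plate and kidney-forming mesoderm followed. Of 13 tested somite genes, 9 were higher and 1 lower, beside 8.42% and 8.76% of all tested genes. Of the 13, 3 reached 1 TPM only in posterior libraries, so the count is in part set by the filter. The rises included Tcf15, a bHLH factor of epithelial somites, at 2.46 and 5.37 TPM anteriorly and 41.3 and 55.9 posteriorly (3.39 ± 0.28), Meox2 at 3.03 ± 0.24 and Foxc2 at 2.06 ± 0.14. The lower one was Pax3, expressed in the dorsal neural tube and crest as well as in somites, at 48.4 and 55.2 TPM anteriorly and 23.4 and 23.5 posteriorly (-1.11 ± 0.11). The activin antagonist Fst, at 52.5 and 43.9 TPM anteriorly and 43.8 and 44.8 TPM posteriorly, did not pass. Of 17 lateral plate and limb field genes, 13 were higher and 0 lower (median 2.19), and 1 of the 17 reached 1 TPM only in posterior libraries. Foxf1 of the splanchnic mesoderm was at 2.75 and 2.46 TPM anteriorly and 119 and 146 TPM posteriorly (5.21 ± 0.13), and Hand1 (4.16 ± 0.18), Hand2 (3.09 ± 0.28) and the forelimb gene Tbx5 (3.65 ± 0.16) rose as well.

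Tbx4, a T-box gene of the hindlimb field and allantois, was at 1.06 and 1.38 TPM in the anterior and 55.4 and 66.3 TPM in the posterior libraries of the mutant (4.80 ± 0.16). In the wt it was at 0.188 and 0.338 TPM anteriorly and 9.01 and 8.11 TPM posteriorly, and the steps differed by 1.87 ± 0.22 (adjusted p = 0.00806), which missed the threshold without library wt posterior 153 or 156 (adjusted p 0.0631 to 0.0763). Of 10 tested genes of the intermediate mesoderm, from which the kidney forms, 5 were higher and 2 lower, beside 8.42% and 8.76% of all tested genes. Of the 10, 3 reached 1 TPM only in posterior libraries and 1 only in anterior ones. Osr1 was at 1.7 and 2.12 TPM anteriorly and 53.9 and 42.2 TPM posteriorly (4.07 ± 0.20), with Wt1 (2.30 ± 0.19) and the receptor gene Ret (1.84 ± 0.18) beside it. Lhx1 rose less in the mutant (1.31) than in the wt (3.61), a difference of -2.30 ± 0.33 (adjusted p = 0.0163) that missed the threshold without library mutant anterior 163 or wt posterior 153 or 156 (adjusted p 0.0602 to 0.126). Pax2, also of the midbrain-hindbrain boundary, was lower (-1.49 ± 0.18), and Sall1 (0.37 ± 0.13) and Gata3 (0.30 ± 0.20) did not pass. Without anterior library 159 or 163 the list held 4 higher and 1 lower, and without posterior library 163 it held 5 higher and 1 lower.

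The head side of the comparison was led by the brain. All 21 tested genes of the forebrain and eye field were lower in the posterior piece (8.76% of all tested genes were), with a median of -2.85 against -2.82 in the wt, and 12 of them passed the filter only through the anterior libraries. Lhx2, needed for the eye field, was at 66.0 and 69.0 TPM anteriorly and 4.09 and 5.78 posteriorly (-3.54 ± 0.17). Lhx5 was at 28.7 and 36.5 TPM anteriorly and 1.78 and 1.83 TPM posteriorly (-3.57 ± 0.16), a smaller step than in the wt (-4.95, difference 1.37 ± 0.22, adjusted p = 0.0267). Emx2 had a larger step in the mutant (-3.90) than in the wt (-2.06, difference -1.85 ± 0.29, adjusted p = 0.0232). The difference missed the threshold for Lhx5 without library mutant anterior 159, wt anterior 153 or 156 or wt posterior 153 or 156 (adjusted p 0.0564 to 0.139), and for Emx2 without mutant anterior 159 or 163 or wt posterior 153 or 156 (adjusted p 0.0667 to 0.155).

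Genes of the midbrain and isthmus, the signalling centre between midbrain and hindbrain, were mixed, with 7 of 11 tested lower and 3 higher. Of all tested genes, 8.76% were lower and 8.42% higher, and 3 of the 11 reached 1 TPM only in anterior libraries. Tal2 of the midbrain was at 23.4 and 20.2 TPM anteriorly and 0.56 and 0.578 posteriorly (-3.86 ± 0.15), and Wnt1 at 27.9 and 44.9 TPM anteriorly and 8.98 and 14.9 TPM posteriorly (-1.53 ± 0.26). En1 was at 8.97 and 7.86 TPM in the mutant anterior libraries and 55.1 and 63.3 TPM in the wt ones. Its posterior libraries were low in both genotypes, and the step was -2.54 in the mutant and -5.66 in the wt (difference 3.12 ± 0.30, adjusted p = 0.00375). Pax5 behaved alike, at 6.68 and 5.76 TPM in the mutant anterior and 34.4 and 41.4 TPM in the wt anterior libraries (difference of steps 2.15 ± 0.22, adjusted p = 0.00375).

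The 2 Fgf ligands of the isthmus are also made in the tail bud. Fgf17 was at 5.06 and 5.84 TPM in the mutant anterior and 46.1 and 53.9 TPM in the mutant posterior libraries (2.98 ± 0.14), against 36.6 and 39.9 TPM anteriorly and 63.7 and 51.5 TPM posteriorly in the wt (difference of steps 2.41 ± 0.19, adjusted p = 0.00159). Fgf8 was at 20.6 and 31.0 TPM anteriorly and 58.5 and 61.0 posteriorly (1.21 ± 0.18), while in the wt the pieces held 55.4 and 64.6 TPM anteriorly and 47.5 and 55.0 TPM posteriorly (difference of steps 1.43 ± 0.25, adjusted p = 0.0333). For both, the mutant anterior libraries lay below the wt anterior ones, and the posterior levels were nearer to each other. The difference of Fgf8 missed the threshold without library mutant anterior 159, mutant posterior 163, wt anterior 153 or 156 or wt posterior 153 or 156 (adjusted p 0.0514 to 0.192).

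The hindbrain lies on both sides of the plane of separation, and its 13 genes split into 5 higher and 4 lower. Of all tested genes, 8.42% were higher and 8.76% lower. Meis1 (1.37 ± 0.14), Fgf3 (0.97 ± 0.11) and Gbx2 (1.32 ± 0.17) were higher posteriorly, and Irx2 (-0.91 ± 0.14) and Irx1 (-1.03 ± 0.24) lower, while Irx3 did not pass (-0.62 ± 0.19, adjusted p = 0.0578). Cyp26c1, which degrades retinoic acid in the anterior hindbrain and head mesenchyme, averaged 76.5 ± 33.2 TPM anteriorly and 20.1 ± 10.9 TPM posteriorly (SD, n = 2) (-1.91 ± 0.43, adjusted p = 0.0144). It did not pass without mutant anterior library 163 (adjusted p = 0.116) or mutant posterior library 163 (adjusted p = 0.0757), and Irx1 did not pass without mutant anterior library 163 (adjusted p = 0.0537) or mutant posterior library 159 (adjusted p = 0.0617). Without anterior library 163, 6 of the 13 were higher and 1 was lower, and the other single mutant libraries left 3 or 4 higher and 2 to 4 lower.

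Genes of cranial placodes and early neurons were mostly lower in the posterior piece, beside 8.76% of all tested genes lower and 8.42% higher. Of 11 tested placode genes, 7 were lower and 2 higher in the posterior piece, with Eya2 at 71.7 and 96.0 TPM anteriorly and 25.5 and 27.2 posteriorly (-1.62 ± 0.14), Foxi2 at -2.71 ± 0.28, Foxi3 at -2.41 ± 0.27 and Sox3 at -1.18 ± 0.15. Pitx1, which is also a hindlimb gene, was higher (2.01 ± 0.28). Of 23 neuronal genes, 15 were lower and 3 higher (median -1.14), against 5 lower and 4 higher in the wt (median -0.21, with 6.9% of all tested genes lower and 7.6% higher there). Of the 23, 1 reached 1 TPM only in posterior libraries of the mutant and 1 only in anterior ones.

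Tubb3, the tubulin of differentiating neurons, was at 321 and 473 TPM in the anterior and 61.2 and 56.6 TPM in the posterior libraries (-2.71 ± 0.16). Stmn2, a microtubule regulator of growing axons, was at 46.2 and 48.8 TPM anteriorly and 8.06 and 5.82 TPM posteriorly (-2.63 ± 0.15), against 21.4 and 19.0 TPM anteriorly and 8.78 and 9.37 TPM posteriorly in the wt (difference of steps -1.56 ± 0.21, adjusted p = 0.0138). Onecut2 of early neurons was at 12.2 and 13.4 TPM anteriorly and 2.24 and 1.59 TPM posteriorly, and at 1.75 and 1.75 TPM anteriorly and 1.24 and 1.34 TPM posteriorly in the wt (difference of steps -1.99 ± 0.23, adjusted p = 0.00727). In each of these 3 genes the anterior mutant libraries were the highest of all 8. The difference of steps missed the threshold for Stmn2 without library mutant anterior 163 or wt posterior 153 or 156 (adjusted p 0.0562 to 0.102), and for Onecut2 without wt posterior 153 or 156 (adjusted p 0.0604 to 0.0652). Stmn3, a relative of Stmn2, was lower posteriorly (-0.89 ± 0.18), a call lost without mutant anterior library 163 (adjusted p = 0.0551). The higher members included Neurog2, at 8.58 and 8.05 TPM anteriorly and 28.8 and 34.5 posteriorly (1.81 ± 0.13), and Mnx1, a motor neuron gene also expressed in notochord and gut, at 3.01 ± 0.16.

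Neural crest genes went both ways. Of 18 tested, 7 were lower and 6 higher in the posterior piece (9 lower and 3 higher in the wt). Of the 18, 1 reached 1 TPM only in posterior libraries of the mutant. Of all tested genes, 8.76% were lower and 8.42% higher in the mutant, and 6.9% and 7.6% in the wt. Sox10, the factor of migrating crest and glia, was at 47.7 and 44.8 TPM anteriorly and 2.62 and 2.36 posteriorly (-3.76 ± 0.13), a steeper fall than in the wt (-2.26, difference -1.50 ± 0.18, adjusted p = 0.00806). The crest genes Tfap2b (-2.46 ± 0.16), Tfap2a (-1.83 ± 0.14) and Erbb3 (-0.91 ± 0.10) were lower too. Twist1, which is expressed in mesenchyme of crest and mesoderm alike, was at 146 and 205 TPM anteriorly and 362 and 345 posteriorly (1.02 ± 0.16), while in the wt it was at 238 and 289 TPM anteriorly and 202 and 178 TPM posteriorly (difference of steps 1.49 ± 0.23, adjusted p = 0.0213). The difference of steps missed the threshold for Sox10 without library wt posterior 156 (adjusted p 0.0589), and for Twist1 without wt anterior 156 or wt posterior 153 or 156 (adjusted p 0.0583 to 0.155). Crabp1 was abundant in both pieces (1277 and 2338 TPM anteriorly and 1712 and 1986 TPM posteriorly) and did not pass.

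Of 16 tested genes of the arch mesenchyme, which the crest builds, 3 were lower and 7 higher in the mutant posterior piece, against 6 lower and 3 higher in the wt. Of the 16, 1 (Lhx6) reached 1 TPM only in posterior libraries of the mutant, so the count is in part set by the filter. Of all tested genes, 8.76% were lower and 8.42% higher in the mutant, and 6.9% and 7.6% in the wt. The lower ones included Dlx5 (-2.02 ± 0.14) and Dlx6 (-2.50 ± 0.17), which set the identity of the lower jaw. The higher ones included Msx1 (1.09 ± 0.18) and Lhx6, at 0.419 and 0.653 TPM anteriorly and 5.04 and 5.6 posteriorly (2.04 ± 0.19, difference from the wt step 1.73 ± 0.27, adjusted p = 0.0227). The difference of steps missed the threshold for Lhx6 without library mutant anterior 159 or 163, wt anterior 153 or wt posterior 153 or 156 (adjusted p 0.0547 to 0.141). Prrx2 did not pass (0.51 ± 0.19).

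Retinoic acid genes showed some of the steepest steps of the comparison. Of 14 tested, 8 were higher and 2 lower in the posterior piece, beside 8.42% and 8.76% of all tested genes. Of the 14, 1 (Aldh1a3) reached 1 TPM only in anterior libraries, so the count is in part set by the filter. The step differed from that of the wt in 5 of the 14 (1.11% of all tested genes). Aldh1a2, the enzyme that makes retinoic acid in trunk mesoderm, was at 17.6 and 9.01 TPM in the anterior and 525 and 467 TPM in the posterior libraries (5.18 ± 0.23). In the wt it was at 34.2 and 38.8 TPM anteriorly and 266 and 282 TPM posteriorly, and the steps differed by 2.31 ± 0.33 (adjusted p = 0.0163). Stra6, the retinol uptake receptor, was at 6.99 and 7.84 TPM anteriorly and 38.5 and 30.7 TPM posteriorly (2.07 ± 0.14), and its step was larger than in the wt by 1.08 ± 0.20 (adjusted p = 0.044). Aldh1a3 of the head had a steeper fall than in the wt (-1.93 ± 0.22, adjusted p = 0.00654). The difference of steps missed the threshold for Aldh1a2 without library wt posterior 153 or 156 (adjusted p 0.13), for Stra6 without mutant anterior 159 or 163, mutant posterior 159, wt anterior 153 or 156 or wt posterior 153 or 156 (adjusted p 0.0644 to 0.203) and for Aldh1a3 without wt posterior 153 (adjusted p 0.0604). Without anterior or posterior library 163, 8 genes of the list were higher and 1 was lower. Crabp2, abundant in both pieces (890.4 and 1017 TPM anteriorly and 905 and 960.4 TPM posteriorly), did not pass.

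Cyp26a1 and Rarb are direct targets of the retinoic acid receptors, and their promoters are shown because both carry a pair of receptor half-sites while the genes differ in their regional step. Rarb, itself a receptor, was at 3.04 and 3.38 TPM anteriorly and 11.8 and 12.9 posteriorly (1.67 ± 0.14, adjusted p = 6.19e-05), and its step did not pass as different from that of the wt (0.49 ± 0.20, adjusted p = 0.35). Cyp26a1, chosen after its values were seen, encodes the enzyme that clears retinoic acid from the tail bud. It was at 63.2 and 86.7 TPM in the anterior and 54.1 and 58.8 TPM in the posterior libraries and did not pass (-0.39 ± 0.15, adjusted p = 0.111). With 1 library left out the mutant step of Cyp26a1 lay between -0.61 and -0.16. In the wt it was at 22.0 and 20.4 TPM anteriorly and 88.3 and 79.8 posteriorly (1.94 ± 0.15, adjusted p = 3.17e-05), and the steps differed by -2.32 ± 0.21 (adjusted p = 0.00228). The anterior mutant libraries were well above the anterior wt libraries, and the posterior mutant libraries below the posterior wt ones. The 250 bases before the RefSeq start (GRCm38.p6, 5′ to 3′) are those at chr14:16575477-16575726 on the minus strand for Rarb and at chr19:37697558-37697807 on the plus strand for Cyp26a1. Capitals mark the match to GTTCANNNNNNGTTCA, which is on the strand shown in Rarb, 52 bases before the start, and reads on the opposite strand in Cyp26a1, 32 bases before it. Of 32851 promoters, 22 (0.067%) held this pattern on either strand.
Rarb: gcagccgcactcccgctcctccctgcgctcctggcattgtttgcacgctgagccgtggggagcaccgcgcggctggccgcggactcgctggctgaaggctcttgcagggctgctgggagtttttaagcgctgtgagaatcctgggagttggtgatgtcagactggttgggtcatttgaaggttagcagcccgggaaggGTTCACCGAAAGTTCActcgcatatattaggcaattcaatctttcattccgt
Cyp26a1: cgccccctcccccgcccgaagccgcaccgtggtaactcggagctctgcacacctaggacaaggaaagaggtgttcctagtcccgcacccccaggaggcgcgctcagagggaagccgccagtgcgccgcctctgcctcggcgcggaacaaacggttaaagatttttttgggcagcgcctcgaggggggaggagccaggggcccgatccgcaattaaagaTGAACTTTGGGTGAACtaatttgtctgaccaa

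Fgf and Wnt genes were higher in the mutant trunk more often than lower. Of 18 Fgf pathway genes, 12 were higher and 3 lower (8 and 3 in the wt). Of all tested genes, 8.42% were higher and 8.76% lower in the mutant, and 7.6% and 6.9% in the wt. Of the 18, 3 reached 1 TPM only in posterior libraries, so the count is in part set by the filter. Among ligands, Fgf4 of the tail bud was at 0.409 and 0.491 TPM anteriorly and 13.2 and 9.78 posteriorly (3.10 ± 0.25), and among receptors Fgfr4 rose by 2.55 ± 0.19 while Fgfr1 was lower (-0.45 ± 0.10). Etv4, a transcription factor that Fgf induces, was at 8.49 and 9.49 TPM anteriorly and 62.6 and 59.0 TPM posteriorly (2.63 ± 0.22), and the feedback phosphatase gene Dusp6 at 107 and 110.0 TPM anteriorly and 151 and 137 TPM posteriorly (0.40 ± 0.09). The call of Fgfr1 was lost without mutant anterior library 163 (adjusted p = 0.0929), and that of Dusp6 without mutant anterior library 159 (adjusted p = 0.0712), mutant anterior library 163 (adjusted p = 0.0521) or mutant posterior library 159 (adjusted p = 0.0517). Without mutant anterior library 163, 10 Fgf genes were higher and 1 was lower.

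Of 27 Wnt pathway genes, 13 were higher and 3 lower (9 and 6 in the wt), beside 8.42% and 8.76% of all tested genes (7.6% and 6.9% in the wt). Of the 27, 1 reached 1 TPM only in anterior libraries of the mutant. Wnt8a, a ligand of the early streak, was at 3.86 and 7.19 TPM anteriorly and 41.8 and 37.4 posteriorly in the mutant (2.69 ± 0.24), against 0.0611 and 0.12 TPM anteriorly and 3.85 and 5.38 TPM posteriorly in the wt. The step in the wt was 2.35 ± 0.24, and the difference of steps did not pass (0.33 ± 0.34, adjusted p = 0.743). Rspo3, which amplifies Wnt, rose by 2.27 ± 0.21, and Notum, a feedback antagonist, by 1.90 ± 0.19. Sfrp5, a secreted antagonist of the foregut and its mesoderm, was at 1.16 and 1.18 TPM anteriorly and 31.9 and 39.7 TPM posteriorly (4.08 ± 0.16), while Sfrp1, at 180.0 and 172 TPM anteriorly and 189 and 175 TPM posteriorly, did not pass.

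Bmp pathway genes held 7 higher and 2 lower of 17 tested, beside 8.42% and 8.76% of all tested genes. The ligand Bmp4 was at 52.2 and 52.4 TPM anteriorly and 119 and 119 posteriorly (1.17 ± 0.10), the pseudoreceptor Bambi rose by 1.52 ± 0.14 and the inhibitory Smad6 by 1.00 ± 0.17. Id4 was lower (-1.21 ± 0.14), as was Id3 (-0.54 ± 0.15, adjusted p = 0.0419), whose call was lost without mutant anterior library 159 (adjusted p = 0.0995), mutant anterior library 163 (adjusted p = 0.193), mutant posterior library 159 (adjusted p = 0.159), wild-type posterior library 153 (adjusted p = 0.0794) or wild-type posterior library 156 (adjusted p = 0.0784). The list held 4 higher and 1 lower without anterior library 159, 6 and 1 without anterior library 163, and 5 and 1 without either wt posterior library.

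Hedgehog genes were regional in the mutant in 10 of 12 tested, 9 higher and 1 lower, against 2 and 2 in the wt. Of all tested genes, 8.42% were higher and 8.76% lower in the mutant, and 7.6% and 6.9% in the wt. Of the 12, 1 reached 1 TPM only in posterior libraries. Ihh, the ligand made by gut endoderm, was at 0.198 and 0.294 TPM anteriorly and 18.9 and 34.3 posteriorly (4.41 ± 0.29). The targets Gli1 (18.1 and 20.6 TPM anteriorly and 51.6 and 50.7 TPM posteriorly, 1.36 ± 0.13) and Ptch1 (0.79 ± 0.16) rose, and the repressor Gli3 was lower (-1.17 ± 0.16). The step differed from that of the wt in 2 of the 12 (1.11% of all tested genes), among them Nkx6-1, a ventral neural tube gene (1.24 in the mutant and -0.36 in the wt, difference 1.60 ± 0.25, adjusted p = 0.022). The difference of Nkx6-1 missed the threshold without library mutant anterior 159 or 163, wt anterior 153 or wt posterior 153 or 156 (adjusted p 0.0592 to 0.13). The call of Ptch1 was lost without mutant anterior library 163 (adjusted p = 0.0586), and Smo, the signal transducer, did not pass (-0.30 ± 0.09).

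Node, notochord and left-right genes held 7 higher and 0 lower of 10 tested, beside 8.42% of all tested genes higher. Of the 10, 5 reached 1 TPM only in posterior libraries, so the count is in part set by the filter, and with the filter at 5 TPM 2 were higher. Noto, a homeobox gene of the node and notochord, was at 0.502 and 0.14 TPM anteriorly and 20.5 and 18.7 posteriorly (3.98 ± 0.24). Nodal was at 0.048 and 0 TPM anteriorly and 4.57 and 3.33 TPM posteriorly (2.26 ± 0.22), its inhibitor Lefty2 at 1.57 ± 0.19 and Dand5, which opposes Nodal on the right side, at 1.27 ± 0.17. Cer1, another secreted inhibitor, was at 1.84 and 1.38 TPM in the mutant posterior and 13.9 and 14.6 TPM in the wt posterior libraries, and its step was 1.06 in the mutant and 3.30 in the wt (difference -2.24 ± 0.23, adjusted p = 0.00393), though the difference missed the threshold without library wt posterior 153 or 156 (adjusted p 0.0545 to 0.0563). In the Gdf11 list, whose ligand times the trunk-to-tail switch, 1 of 9 tested was higher, Pcsk5, the protease that activates Gdf11 (0.71 ± 0.16, adjusted p = 0.0129), and that call was lost without mutant anterior library 159 (adjusted p = 0.0625) or mutant posterior library 163 (adjusted p = 0.0642). Without anterior library 163 the list held 2 higher, without posterior library 159 it held 1 higher and 1 lower, and 3 were higher after median-of-ratios scaling or quantile normalization. Gdf11 itself was at 24.3 and 25.8 TPM anteriorly and 30.5 and 31.4 posteriorly (0.30 ± 0.12, adjusted p = 0.151), and Wfikkn1, its antagonist, at 4.8 and 6.36 TPM anteriorly and 9.08 and 7.76 TPM posteriorly (0.52 ± 0.16, adjusted p = 0.0599).

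Nr6a1 transcript was lower in the posterior piece, a call lost with the spread taken from the mutant libraries alone. It was at 239.8 and 202 TPM in the anterior and 158 and 116 TPM in the posterior libraries (-0.70 ± 0.15, adjusted p = 0.0101). No posterior library reached an anterior one, which held for 30.9% of all tested genes. The gene (ENSMUSG00000063972; mm10 chromosome 2, 38723370 to 38927688, minus strand) was measured as a whole, which does not check the mutation. The call was lost without mutant anterior library 159 (adjusted p = 0.0816). In the wt it was at 194 and 205 TPM anteriorly and 157 and 165 TPM posteriorly, and the steps did not pass as different (-0.39 ± 0.21, adjusted p = 0.477). Of 9 orphan nuclear receptor genes, 1 was higher and 2 lower, Nr6a1 among them, beside 8.42% and 8.76% of all tested genes. Nr2f1 (COUP-TFI) was lower (-0.97 ± 0.15), and Esrrg was higher (0.99 ± 0.22, adjusted p = 0.0143), a call lost without mutant anterior library 159 (adjusted p = 0.0793), mutant anterior library 163 (adjusted p = 0.0554) or mutant posterior library 159 (adjusted p = 0.0659). Nr0b1 (Dax1) was at 19.6 and 18.9 TPM anteriorly and 19.9 and 19.3 posteriorly (0.03 ± 0.22) and at 0.413 and 0.808 TPM anteriorly and 0.149 and 0.787 TPM posteriorly in the wt. Esrrb was left out by the filter, at 0.915 and 1.28 TPM anteriorly and 0.957 and 0.662 posteriorly, and Fcer1g of blood cells, at 0.575 and 1.03 anteriorly and 1.22 and 1.57 posteriorly, was just inside it.

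Pou5f1, which encodes the pluripotency factor Oct4, was high in all 4 mutant libraries, with a step toward the head whose call did not hold under every alternative. The gene lies outside the rule for named genes and was chosen after its values were seen. It was at 94.4 and 127 TPM in the anterior and 77.2 and 62.0 TPM in the posterior libraries (-0.65 ± 0.16, adjusted p = 0.0223). This call was lost with the mutant libraries alone, with or without the library number as a replicate block, and with no filter on low values. In the wt the order was turned, at 1.94 and 1.81 TPM anteriorly and 3.95 and 4.18 posteriorly (0.81 ± 0.16, adjusted p = 0.00921), and the steps differed by -1.47 ± 0.23 (adjusted p = 0.0218), which missed the threshold without library mutant anterior 163, wt anterior 153 or 156 or wt posterior 153 or 156 (adjusted p 0.0519 to 0.142). The mutant call was lost without mutant anterior library 163 (adjusted p = 0.155) or mutant posterior library 163 (adjusted p = 0.133). Its promoter is shown because Nr6a1 is known to bind DNA at direct repeats of AGGTCA and related extended half-sites. The 250 bases before the RefSeq start (chr17:35505782-35506031, plus strand, GRCm38.p6) hold 1 match to AGGTCAAGG, in capitals, 33 bases before the start, and 87 of 32851 promoters (0.265%) held it on either strand. RefSeq lists another Pou5f1 start, whose promoter holds no match. A match here describes the letters only.
Pou5f1: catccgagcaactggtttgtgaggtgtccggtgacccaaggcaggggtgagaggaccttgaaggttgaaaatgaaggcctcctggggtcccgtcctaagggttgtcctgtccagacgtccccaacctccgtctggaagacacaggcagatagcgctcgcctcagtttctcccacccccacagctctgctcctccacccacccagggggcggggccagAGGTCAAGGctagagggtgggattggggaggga

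Other pluripotency genes were mixed, with 5 lower and 2 higher of 12 tested, beside 8.76% and 8.42% of all tested genes. Of the 12, 1 reached 1 TPM only in posterior libraries and 1 only in anterior ones. Nanog was at 19.7 and 22.2 TPM anteriorly and 5.05 and 3.68 posteriorly (-2.04 ± 0.17), against 0.903 and 1.07 TPM anteriorly and 0.42 and 0.539 TPM posteriorly in the wt (difference of steps -1.62 ± 0.25, adjusted p = 0.0202), a difference that missed the threshold without library mutant anterior 159 or 163, wt anterior 153 or wt posterior 153 or 156 (adjusted p 0.0541 to 0.13). Sox2, also a gene of the neural plate, was at 314 and 354 TPM anteriorly and 151 and 154 TPM posteriorly (-1.12 ± 0.09), and the DNA methyltransferase gene Dnmt3b at -0.81 ± 0.11. Tfcp2l1 (1.28 ± 0.21) and Klf4 (0.94 ± 0.20) were higher, and the call of Klf4 was lost without mutant anterior library 163 (adjusted p = 0.0599) or mutant posterior library 163 (adjusted p = 0.0615). The list held 1 higher and 4 lower without anterior library 163, and 1 higher and 3 lower without posterior library 163. Of 9 tested germ cell genes, 4 were higher and 2 lower, beside 8.42% and 8.76% of all tested genes. This count is in part set by the filter, since 2 of the 9, Nanos3 among them, reached 1 TPM only in posterior libraries. Ifitm3 was at 18.5 and 22.5 TPM anteriorly and 52.9 and 80.0 posteriorly (1.63 ± 0.20), Nanos3, a defining germ cell gene, at 0.653 and 0.728 TPM anteriorly and 3.17 and 4.71 TPM posteriorly (1.53 ± 0.25), and Sox17, also of endoderm, at 1.18 ± 0.20. Tfap2c, also of surface ectoderm and crest, was lower (-1.15 ± 0.16), as was Kit (-0.54 ± 0.13, adjusted p = 0.0222), whose call was lost without mutant anterior library 159 (adjusted p = 0.0879), mutant anterior library 163 (adjusted p = 0.105) or mutant posterior library 163 (adjusted p = 0.116). The germ cell list held 3 higher and 1 lower when any 1 of these 3 libraries was left out.

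Endoderm was measured in genes of the embryo's own gut and in genes of the visceral endoderm that surrounds it. Of 14 tested gut genes, 7 were higher and 3 lower, beside 8.42% and 8.76% of all tested genes, and 2 of the 14 reached 1 TPM only in posterior libraries. Foxa1 rose by 1.37 ± 0.16 and Foxa3 by 1.87 ± 0.31, and the pharyngeal gene Nkx2-3 was lower (-1.89 ± 0.29). Spink1, a secreted protease inhibitor, was at 44.5 and 216 TPM in the posterior libraries, which lay far apart. Of 13 tested visceral endoderm genes, 12 were higher, and 7 of the 13 passed the filter only through the posterior libraries. Their summed level was 19.8 and 29.4 TPM in the anterior and 277 and 1364 TPM in the posterior libraries, so posterior library 163 was well above 159. Apoa1, an apolipoprotein, was at 30.2 and 323 TPM, Afp (alpha-fetoprotein) at 13.8 and 66.4 and Rbp4 at 86.5 and 324 in the posterior libraries. Ambp (3.59 ± 0.27), Fgb (2.98 ± 0.43), Ttr and Rbp4 (4.38 ± 0.71) were among the 12. The count fell to 6 without anterior library 159, to 7 without anterior library 163 or posterior library 163, and to 7 without either wt posterior library, and 5 were higher with limma voom on recovered reads. The call of Apoa1 was lost without mutant anterior library 159 (adjusted p = 0.0995), mutant anterior library 163 (adjusted p = 0.0784), mutant posterior library 163 (adjusted p = 0.0664), wild-type posterior library 153 (adjusted p = 0.0536) or wild-type posterior library 156 (adjusted p = 0.0532), that of Afp without mutant anterior library 159 (adjusted p = 0.096), mutant anterior library 163 (adjusted p = 0.0856), mutant posterior library 163 (adjusted p = 0.0983), wild-type posterior library 153 (adjusted p = 0.0531) or wild-type posterior library 156 (adjusted p = 0.0527), and that of Apom (4.68 ± 0.87) without mutant anterior library 159 (adjusted p = 0.0505).

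Heart genes lay apart in the posterior libraries in the opposite order. Of 15 tested, 4 were higher and 0 lower, with a median difference of 2.28, beside 8.42% of all tested genes higher and 8.76% lower. Of the 15, 1 reached 1 TPM only in posterior libraries. The median was 0.93 without posterior library 159, 1.51 without anterior library 163 and 3.17 without posterior library 163. Myl7, an atrial myosin light chain, was at 231 and 71.0 TPM in the anterior and 1796 and 218 TPM in the posterior libraries (2.28 ± 1.15, adjusted p = 0.235), Actc1, cardiac actin, at 149 and 38.5 TPM anteriorly and 1382 and 153 TPM posteriorly (2.58 ± 1.00), and Myl4 at 16.9 and 5.1 TPM anteriorly and 129 and 26.8 TPM posteriorly (2.53 ± 0.78), and these 3 did not pass. The summed level of the list was 508 and 167 TPM anteriorly and 4100.1 and 639 posteriorly, with library 159 above 163 in both pieces. The 4 that passed were Gata4, of heart, lateral plate and endoderm, at 3.3 and 1.38 TPM anteriorly and 88.8 and 102 TPM posteriorly (4.91 ± 0.29), Tbx20 (2.63 ± 0.29), Tnni1 (2.74 ± 0.59) and Ryr2 (1.51 ± 0.33). Without posterior library 163 the list held 10 higher members, and without anterior library 163 it held 2, when Tnni1 and Ryr2 no longer passed (adjusted p = 0.095 and 0.0772). With the library number as a replicate block and the mutant libraries alone, Actc1, Myl4 and Myl7 passed. The labels do not say that a number is an embryo. The part that the amount of heart or visceral endoderm tissue in each piece had in the heart and visceral endoderm values was not tested.

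Globin and red cell genes had no call between the pieces. Of 15 globin and erythroid genes, 0 passed in either direction by limma on TPM or by limma voom on recovered reads, 0 had an unadjusted p under 0.05, and the median was -0.02. Hbb-y, an embryonic globin gene, was at 14441 and 10362 TPM anteriorly and 16239 and 9383 posteriorly (0.01 ± 0.43), Alas2, the enzyme of erythroid heme synthesis, at 166 and 71.1 TPM anteriorly and 139.7 and 60.4 TPM posteriorly, and Tfrc, the transferrin receptor, at 254 and 167 TPM anteriorly and 295 and 209.8 TPM posteriorly. Library 159 was above 163 in both pieces for all 3. Of 14 endothelial genes, 5 were higher and 1 lower, beside 8.42% and 8.76% of all tested genes. Tek, an angiopoietin receptor, was at 13.9 and 17.2 TPM anteriorly and 40.1 and 40.8 TPM posteriorly (1.33 ± 0.17), with Tie1 (0.99 ± 0.19), Pecam1 (0.76 ± 0.14) and Cdh5 (0.80 ± 0.16) beside it, and Etv2, a factor of the earliest endothelial progenitors, was lower (-0.83 ± 0.16). Of 4 tested megakaryocyte and macrophage genes 1 was higher, Itga2b (0.87 ± 0.22, adjusted p = 0.0235), a call lost without mutant anterior library 159 (adjusted p = 0.143), mutant posterior library 159 (adjusted p = 0.107), wild-type posterior library 153 (adjusted p = 0.0536) or wild-type posterior library 156 (adjusted p = 0.0536). Without anterior library 163, 3 of the 4 were higher, without either wt anterior library 2 were, and with voom on recovered reads 2 were. Pf4, at 2.79 and 11.0 TPM anteriorly and 16.1 and 18.6 TPM posteriorly, did not pass (adjusted p = 0.0517), though it did with the filter at 5 TPM and with limma voom on recovered reads. The macrophage gene Ptprc was at or under 0.0188 TPM in all 4 mutant libraries. Of 3 tested trophoblast genes 0 passed by limma on TPM or on recovered reads, 1 had an unadjusted p under 0.05, 1 was lower without anterior library 159, and the trophoblast genes Tpbpa and Prl2c2 were at 0 in all 4.

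Surface ectoderm genes held 4 higher and 3 lower of 10 tested, beside 8.42% and 8.76% of all tested genes. Of the 10, 1 (Krt5) reached 1 TPM only in posterior libraries, so the count is in part set by the filter. Krt5, a basal keratin, was at 0.137 and 0.357 TPM anteriorly and 5.33 and 7.82 posteriorly (2.59 ± 0.20), Grhl3, needed to close the neural tube, at 9.12 and 8.32 TPM anteriorly and 23.8 and 21.9 TPM posteriorly (1.30 ± 0.13), and Krt8 rose by 1.26 ± 0.15, while Grhl2 was lower (-0.84 ± 0.13).

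Stress and growth genes are given beside the 17.2% of all tested genes that were called. Of 25 hypoxia and glycolysis genes, 3 were higher, the prolyl hydroxylase subunit genes P4ha1 (0.45 ± 0.11) and P4ha2 (0.57 ± 0.16) and the glucose transporter gene Slc2a1 (0.41 ± 0.11), and 1 was lower, Slc2a3 (-0.45 ± 0.11), a share near that of all tested genes. With 1 library left out at a time the adjusted p lay between 0.0101 and 0.138 for P4ha1, 0.0182 and 0.228 for P4ha2, 0.0324 and 0.184 for Slc2a1 and 0.0196 and 0.138 for Slc2a3. The counts then lay between 0 and 3 higher and between 0 and 2 lower, with 0 higher without anterior library 159 or posterior library 159, 1 higher without posterior library 163 or any 1 wt library, and 0 lower without anterior library 163, posterior library 163 or either wt anterior library. Of 15 genes of the integrated stress response 0 were higher and 1 was lower, the cystine transporter gene Slc7a11 (-0.89 ± 0.19), lost without mutant anterior library 163 (adjusted p = 0.0778), while 5 were lower without anterior library 159 and 3 without posterior library 159. Of these 15 stress response genes, 1 reached 1 TPM only in anterior libraries of the mutant. Ddit4, a stress-induced inhibitor of mTOR, was at 959 and 1478 TPM anteriorly and 1062 and 926 posteriorly (-0.26 ± 0.24) and at 72.3 and 98.4 TPM anteriorly and 78.7 and 113 TPM posteriorly in the wt. Of 19 replication and cell cycle genes 2 were higher and 0 lower. Cdkn1a (p21), which arrests the cycle, was at 8.1 and 7.76 TPM anteriorly and 32.4 and 36.2 posteriorly (1.98 ± 0.12), and Ccnd1 (cyclin D1) rose by 0.46 ± 0.09, a call lost without mutant anterior library 163 (adjusted p = 0.0539). Without posterior library 159, 2 were higher and 2 lower.

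**Figure D4:**
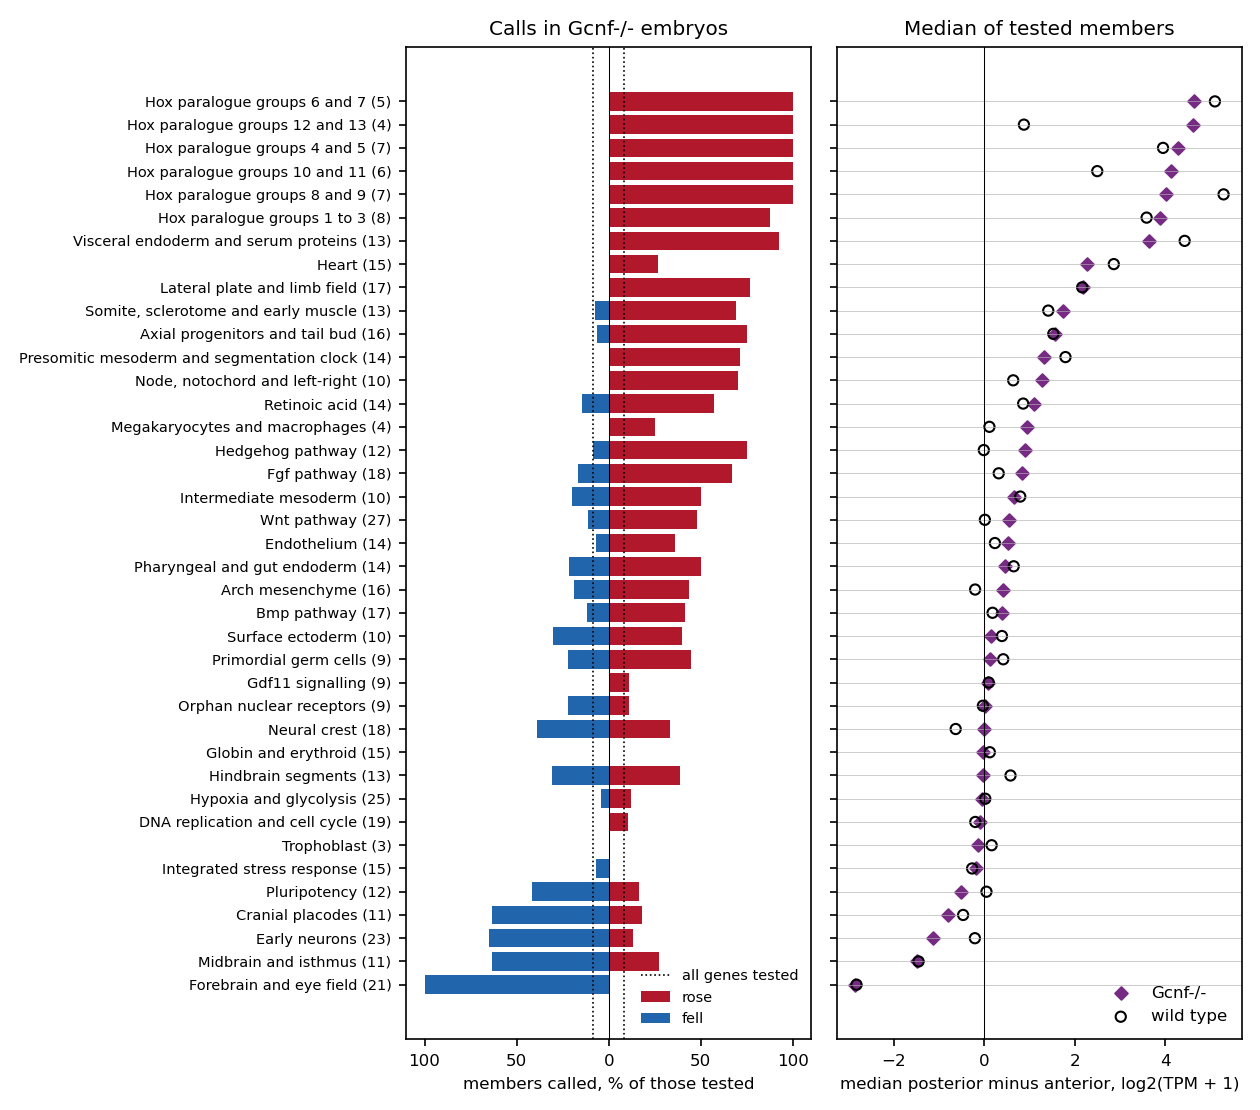
Left, share of tested members of each list (number in brackets) that were higher (red, right) or lower (blue, left) in the posterior piece of Gcnf-/- embryos, with dotted lines at 8.42% and 8.76% for all tested genes. Right, median posterior minus anterior difference in Gcnf-/- (diamonds) and wt (circles) embryos, where the Hox groups 12 and 13 (4.62 and 0.88) lie farthest apart.

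The regional pattern of the mutant was set beside that of the wt over the same 15836 genes. In the wt 2296 genes (14.5%) differed, 1204 (7.6%) higher and 1092 (6.9%) lower in the posterior piece, and after median-of-ratios scaling 1497 were higher and 874 lower. Leaving out 1 wt library gave 1152 to 1440 wt calls. The same direction was called in both genotypes for 1440 genes, which were 52.9% of the mutant calls and 62.7% of the wt calls, and 30 genes were called in opposite directions, 16 of them higher in the mutant posterior piece. A further 1252 genes were called in the mutant alone and 826 in the wt alone, which does not show that these differ between genotypes. Counts and medians of lists set beside those of the wt are likewise descriptions. Across genes, which are not independent replicates, the differences of the genotypes correlated with a Pearson r of 0.78 and a Spearman rho of 0.518. The difference of the steps itself passed for 176 genes (1.11%), 104 with a more positive step in the mutant (0.657%) and 72 with a more negative one (0.455%). Fewer passed without mutant anterior library 159 (100) or 163 (91), wt anterior library 153 (88) or 156 (92), and wt posterior library 153 (24) or 156 (25).

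Beside Hoxb13 and Hoxd12, Gfra3 and En1 were among the most positive differences of steps. Gfra3, a receptor for artemin on neural crest cells and neurons, was at 3.02 and 2.86 TPM in the mutant anterior and 75.8 and 86.3 TPM in the mutant posterior libraries (4.38 ± 0.17), and at 5.18 and 4.96 TPM anteriorly and 10.6 and 15.5 TPM posteriorly in the wt (difference 3.19 ± 0.24, adjusted p = 0.00126). The posterior mutant libraries stood above all others. Cdx1 was at 1.67 and 1.73 TPM in the mutant anterior and 6.52 and 8.83 TPM in the wt anterior libraries (difference of steps 2.17 ± 0.22, adjusted p = 0.00375). The most negative was that of Sst, the peptide hormone somatostatin, at 13.1 and 49.9 TPM in the mutant anterior and 1.57 and 4.13 TPM in the mutant posterior libraries, and at 0 and 0.289 TPM anteriorly and 5.22 and 1.38 TPM posteriorly in the wt (difference -4.65 ± 0.87, adjusted p = 0.0465). The mutant anterior libraries lay far apart, and the step in the mutant (-2.88 ± 0.62) lost its call without mutant anterior library 163 (adjusted p = 0.0746). The difference of steps missed the threshold for Sst without library mutant anterior 163, mutant posterior 159, wt anterior 153 or 156 or wt posterior 153 or 156 (adjusted p 0.0667 to 0.225), and for Cdx1 without wt posterior 156 (adjusted p 0.0507).

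Aass, an enzyme of lysine breakdown, and Uap1l1, a paralogue of a UDP-sugar pyrophosphorylase, had no called step in the mutant (-0.16 ± 0.25 and -0.39 ± 0.12) and one in the wt (2.65 ± 0.25 and 2.28 ± 0.12). The mutant step of Uap1l1 did pass after median-of-ratios scaling or quantile normalization and with limma voom on recovered reads. Aass was at 5.01 and 4.61 TPM anteriorly and 3.03 and 5.7 posteriorly in the mutant and 2.15 and 1.28 TPM anteriorly and 16.9 and 14.7 TPM posteriorly in the wt (difference -2.80 ± 0.35, adjusted p = 0.00919). Uap1l1 was at 19.0 and 21.2 TPM anteriorly and 15.4 and 14.8 TPM posteriorly in the mutant and 3.22 and 2.82 TPM anteriorly and 19.1 and 17.8 TPM posteriorly in the wt (difference -2.66 ± 0.17, adjusted p = 0.000742), and both wt anterior libraries were the low ones. Kazald1, a secreted protein of the insulin-like growth factor binding type, was at 14.9 and 28.5 TPM in the mutant anterior libraries and 4 and 2.67 TPM in the wt ones, and its posterior libraries were low in both genotypes (difference -2.65 ± 0.45, adjusted p = 0.0314). The difference missed the threshold for Aass without library wt posterior 153 or 156 (adjusted p 0.079 to 0.1), and for Kazald1 without mutant anterior 163, mutant posterior 163, wt anterior 156 or wt posterior 153 or 156 (adjusted p 0.054 to 0.185). Mir1898, the second most negative (-3.18 ± 0.44), was at 1.21 and 1.35 TPM anteriorly and 0 in both posterior mutant libraries, and at 0 in both anterior and 4.86 and 1.71 TPM in the posterior wt libraries. In the mutant libraries 3 reads give 2.4 to 4.14 TPM for its 83 bases, so the mutant values are of at most 1 read. In the posterior wt libraries 3 reads give 4.86 and 2.57 TPM, so the wt values are of at most 3 reads. No fold is given. Its difference missed the threshold without library mutant anterior 159 or 163 (adjusted p 0.0514 to 0.0568).

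**Figure D5:**
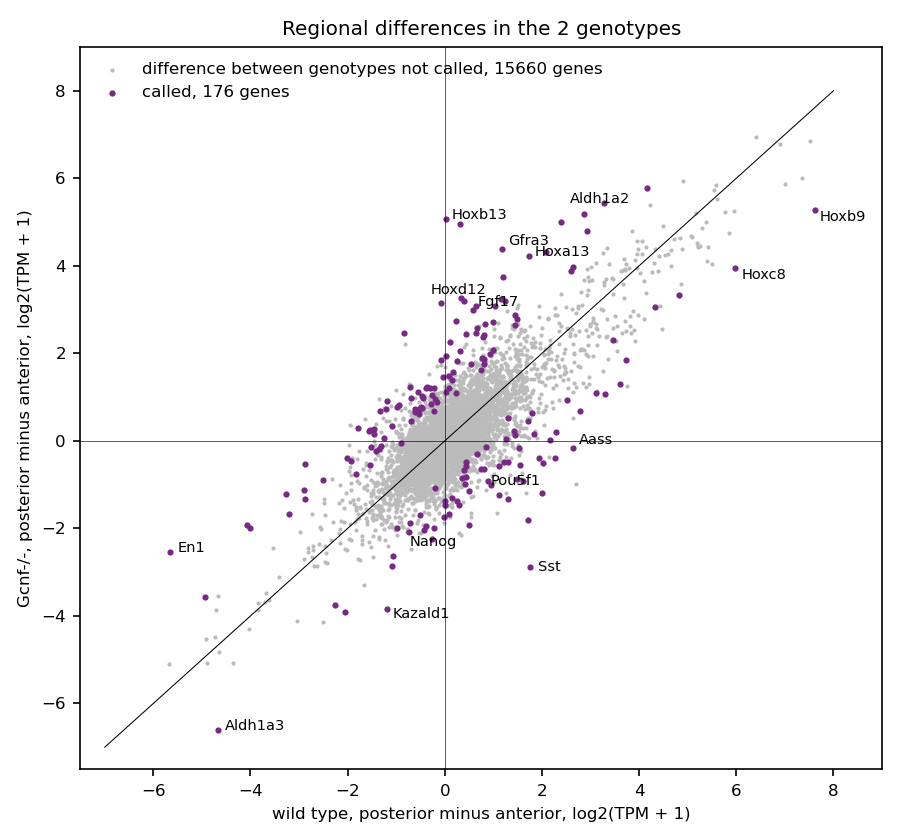
Posterior minus anterior difference of log2(TPM + 1) in Gcnf-/- embryos (y axis) against that in wt embryos (x axis) for the 15836 genes tested. Purple points mark the 176 genes whose differences differed between the genotypes (adjusted p under 0.05), the line marks equal differences, and Hoxb13 and Hoxd12 stand near 0 on the x axis.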

How the data were processed

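RNA was taken from anterior and posterior pieces of Gcnf-/- and wt embryos and sequenced as unstranded poly(A) libraries, per the labels' protocols. Per the submitters' processing notes, CASAVA 1.8.2, STAR and mm10 were used. Which STAR version, gene annotation and quantifier made the table was not given in the sources used here. Deposited values are the authors' TPM, 1 table for all 8 libraries. Gene names came from GENCODE M21. Reads per gene were recovered from TPM and gene length, and 98.8 to 98.89% of values were whole within 0.01.

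Groups were compared on log2(TPM + 1) with limma 3.58.1 (R 4.3.3), as 4 group means over all 8 libraries with a trended prior, 4 residual and 4.97 prior degrees of freedom, two-sided, with Benjamini-Hochberg adjustment at 0.05. Genes needed 1 TPM in 2 mutant libraries. Named genes were Nr6a1, the 10 largest rises and falls whose libraries do not overlap and the 5 largest differences between genotypes each way, whose higher group averaged 2 TPM or more, without predicted, sex-linked, mitochondrial or pseudogenes. Added to these were all Hox genes and, of each other list, the 5 members of smallest p and the 2 others of highest mean. Other genes named in the text, such as Pou5f1 and Cyp26a1, were chosen after their values were seen. The comparison and its 39 lists were chosen with earlier results of these data known. Some genes that the rule names are not reported here. Promoters came from RefSeq. Alternatives were pseudocounts of 0.1 and 0.5, no filter, a filter at 5 TPM, 2 scalings, the mutant libraries alone, a replicate block and each library left out, and limma voom on recovered reads and the omission of both libraries numbered 153 were added after seeing the data.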

Additional observations from a re-analysis of the deposited data

Results flagged for a closer look

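The step from anterior to posterior differed between the mutant and the wt, by a test of the difference itself (limma, adjusted p under 0.05 over 15836 genes), for 176 genes. Values are mutant step minus wt step on the log2 scale. Among Hox genes the value was 1.60 for Hoxa4, 2.25 for Hoxa11, 2.56 for Hoxc11, 2.07 for Hoxd11, 3.24 for Hoxd12, 2.50 for Hoxa13, 5.05 for Hoxb13 and 2.61 for Hoxd13, and it was -2.03 for Hoxc8, -2.34 for Hoxb9 and -1.48 for Hoxc9.

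In the growth zone and trunk it was 2.17 for Cdx1, 1.87 for Tbx4, -2.30 for Lhx1 and -2.24 for Cer1. In the brain and isthmus it was 3.12 for En1, 2.15 for Pax5, 2.41 for Fgf17, 1.43 for Fgf8, 1.37 for Lhx5 and -1.85 for Emx2. In crest, arch and neuronal genes it was 3.19 for Gfra3, 1.73 for Lhx6, 1.49 for Twist1, -1.50 for Sox10, -1.56 for Stmn2 and -1.99 for Onecut2. Among retinoic acid genes it was 2.31 for Aldh1a2, 1.08 for Stra6, -2.32 for Cyp26a1 and -1.93 for Aldh1a3, and for the ventral neural tube gene Nkx6-1 1.60. It was -1.62 for Nanog and -1.47 for Pou5f1. The others were -4.65 for Sst, -3.18 for Mir1898, -2.80 for Aass, -2.66 for Uap1l1 and -2.65 for Kazald1.

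All 39 of these named genes kept their sign under every alternative in which they were tested. Of them 12 passed without each single library, 15 passed without wt posterior library 153 and 16 without wt posterior library 156. With limma voom on recovered reads 22 of the 39 passed, and without a filter 15 did.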

How the results depend on the processing

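Of 212 named genes with a test, 186 passed in the mutant and 158 of these passed under every alternative that tested them, 28 were lost under at least 1, 12 others gained a call, and 0 calls changed sign. The 2722 calls of the mutant became 1800 (850 lower) with the mutant libraries alone and 1790 (842 lower) without both libraries numbered 153. With 1 library left out they lay between 1881 and 2854, between 866 and 1395 higher and between 777 and 1459 lower. Wt calls lay between 1152 and 2706 with 1 library left out, between 650 and 1335 higher and between 448 and 1374 lower, and without both libraries numbered 153 there were 597, 391 higher and 206 lower. For the difference of steps, no filter gave 54 calls, 31 more positive and 23 more negative. Leaving out 1 library gave between 24 and 242, between 15 and 139 more positive and between 9 and 106 more negative. Without both libraries numbered 153, limma gave 0 calls, 0 more positive and 0 more negative, with 1017 genes at an unadjusted p under 0.05, and limma voom with all libraries gave 192, which kept 122 of the 176 reported. A group with 1 library left out is 1 library, assumed to vary like the others. The other causes were not tested.

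Libraries of 1 genotype share a number between the regions, but the labels do not say that a number is an embryo. Deviations of same-numbered libraries correlated at 0.156 in the mutant and 0.036 in the wt. With the number as a replicate block, limma gave 2721 calls in the mutant (2099 with the mutant libraries alone), 2326 in the wt and 149 for the difference. With that block 11 of 15 heart genes were higher with the mutant libraries alone, Actc1, Myl4 and Myl7 among those that passed, and over all libraries 8 of 15 heart genes and 8 of 14 endothelial genes were higher. Without a filter 7 of 13 visceral endoderm genes, 2 heart genes and 0 hypoxia genes were higher, and with the filter at 5 TPM 2 node genes were. With 3 reads in a gene of 1 kb at 0.2 to 0.343 TPM in the mutant libraries, changes of genes near that level were not detectable.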
